A study of Mus musculus with 9 samples.

Results

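The protocadherins are cadherin-like adhesion proteins of the cell surface, most of them made by neurons. The genes taken were those of the count table whose symbol begins with Pcdh and that had 10 or more raw counts in at least 3 of 9 whole-brain libraries. Of 53465 rows in the table, 70 carried such a symbol and 68 met the rule. They were 14 Pcdha genes, 21 Pcdhb genes, 22 Pcdhg genes and 11 genes that stand alone in the genome, called single Pcdh genes. Pcdhb1, with 0 to 12 counts per library, and Pcdh12, a protocadherin of endothelial cells with 2 to 13 counts, fell short of it. The 68 genes passed the filter on low counts and were tested among 18501 genes.

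The libraries came from male C57BL/6 mice aged 7 weeks at the start. CON mice (n = 3) received saline and were not made diabetic. DNP mice (n = 3), the diabetic neuropathic pain model, ate a 60% high-fat diet over 4 weeks, were injected with streptozotocin (50 mg/kg, 7 days), which kills insulin-producing cells, and were given saline. BAC mice (n = 3) had the same diet and streptozotocin and then the GABA-B receptor agonist baclofen at 8 mg/kg for 7 days. Mice entered DNP or BAC only with a fasting glucose of at least 16.7 mmol/L and lowered pain thresholds 4 weeks after streptozotocin, so diet, toxin, hyperglycaemia and pain cannot be told apart in DNP against CON. Baclofen given to non-diabetic mice was not analysed here.

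In the clustered families, each gene supplies its own first exon, which encodes the extracellular, transmembrane and proximal cytoplasmic parts of the protein. Each Pcdha or Pcdhg first exon is spliced to constant exons shared by its whole family, whereas Pcdhb genes have no constant exons. Neurons choose among most of these promoters at random, and the extracellular parts bind only copies of themselves, which lets a neuron recognise its own branches. The C-type genes at the end of the Pcdha and Pcdhg clusters are made in many neurons without such a choice. Single Pcdh genes differ from one brain region to the next and act in axon growth, sorting and synapse turnover.

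The annotation shows the same layout. On GRCm38 (GENCODE M21) the Pcdha genes span chr18:36930184-37187661, the Pcdhb genes chr18:37264938-37524479 and the Pcdhg genes chr18:37661793-37841873, all on the forward strand. The Pcdha genes shared 3 exon blocks of 2860 bases in all, a median of 53.4% of a gene's exonic length, and the Pcdhg genes shared 3 blocks of 2116 bases, a median of 44.7%. Each of the 22 annotated Pcdhb genes, Pcdhb1 included, was a single exon. How reads in shared exons were assigned to a gene is not given in the sources used here, so the split of counts among Pcdha or Pcdhg genes is less certain than the sum over a family. The symbol Pcdha11 is on 2 rows; the row ENSMUSG00000007440 starts at chr18:37005203 and is written with its identifier, and the other starts at chr18:37010712.

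Libraries held 13107382 to 16008129 counts. Although all are labelled whole brain, they differed in regional markers. CON 2 and BAC 1 had the highest summed level of 12 cerebellar neuron genes, at 8396 and 4428 CPM (counts scaled by TMM library size) against 276 to 1540 in the other 7 libraries. DNP 1, BAC 1 and BAC 3 had 406, 496 and 455 CPM over 12 brainstem and spinal cord genes, against 0.265 to 29.7 elsewhere, where 7 to 10 of the 12 had no count. Gabra6, the defining receptor subunit of cerebellar granule cells, had 0 counts in DNP 2, DNP 3 and BAC 2. Forebrain excitatory neuron genes summed to 393 to 1215 CPM in CON 2, DNP 1, BAC 1 and BAC 3, and to 2796 to 4101 CPM in the other 5. These 4 libraries are therefore left out in a second fit given beside the main results, which leaves 1 BAC library. In bulk tissue, fewer cells of a type and less RNA per cell cannot be told apart.

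Summed over all its genes, the Pcdha family stood lower in DNP than in CON. Its level was 174, 124 and 171 CPM in CON 1 to 3, and 102, 85.1 and 85.2 CPM in DNP 1 to 3. The lowest CON library was above the highest DNP library, and the means were 157 ± 28.3 (SD, n = 3) and 90.8 ± 9.71 CPM. BAC libraries had 109, 99.98 and 109 CPM, again without overlap with CON but overlapping DNP. The Pcdhg family summed to 868, 1016 and 883 CPM in CON, 478, 799 and 634 in DNP, and 727, 777 and 484 in BAC. Every DNP and BAC library was below the CON libraries in this sum, and DNP and BAC overlapped. For the Pcdhb family the means were 196 ± 13.4, 174 ± 11.4 and 186 ± 12.7 CPM in CON, DNP and BAC, all overlapping, and the sum varied by 7.87% (CV) over the 9 libraries. Single Pcdh genes summed to 750 ± 328 CPM in CON, 677 ± 55.0 in DNP and 645 ± 200 in BAC, and CON 2, at 372 CPM, was the lowest library of all.

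**Figure D1:**
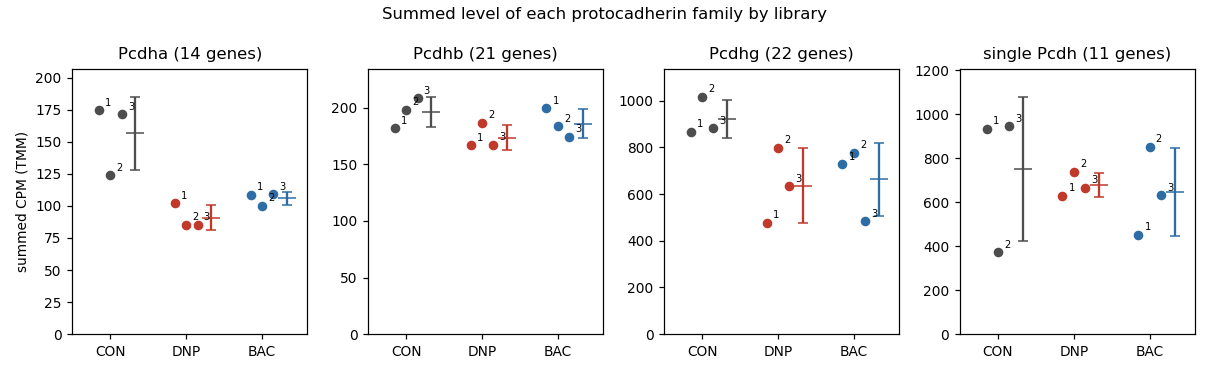
Summed CPM (y axis, TMM scaled, from 0) of the genes of each family in CON, DNP and BAC. Each point is a library with its replicate number, and the bar to its right is mean ± SD (n = 3). In the Pcdha and Pcdhg panels all 3 CON points lie above the DNP points, while in the other panels the groups overlap.

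Gene by gene, DNP against CON gave no protocadherin past 0.05 after adjustment in the quasi-likelihood test of edgeR, where no gene of the 18501 passed (0% called). The smallest adjusted p of a protocadherin was 0.294. At an unadjusted p under 0.05 there were 17 protocadherins with lower values in DNP, where 5.46% of all genes were called in that direction, and 1 with higher values, against 5.71%. The 17 were 6 of 14 Pcdha genes, 1 of 21 Pcdhb genes, 10 of 22 Pcdhg genes and 0 of 11 single Pcdh genes. Pcdha rows share exons with each other, as do Pcdhg rows, so here and in the later comparisons they are not independent observations. DESeq2 called 7 of the 68 at an adjusted p under 0.05, all lower in DNP, against 1.87% of all genes in either direction; these fell in DNP by that test only. The 7 were Pcdhac2, Pcdha11 (ENSMUSG00000007440), Pcdhga3, Pcdhga11, Pcdhga12, Pcdhgb2 and Pcdhgb6. In 20 protocadherins every DNP library was below every CON library (8.63% of all genes), and in 1 every DNP library was above (9.59%). The median log2 fold change was −0.74 over the Pcdha genes, −0.17 over Pcdhb, −0.89 over Pcdhg and 0.13 over the single Pcdh genes, beside 0.01 over all genes tested.

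**Figure D2:**
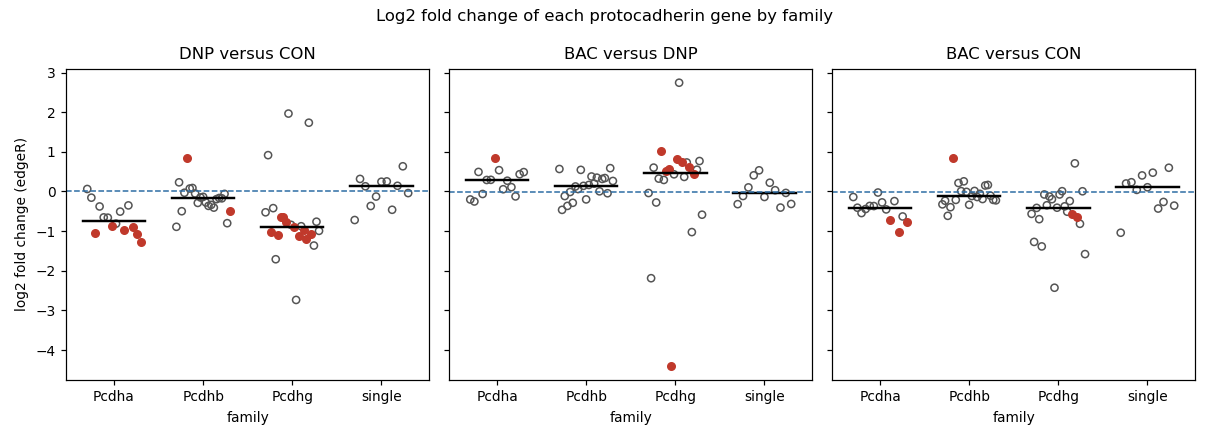
Log2 fold change (y axis, edgeR) of each of the 68 protocadherin genes by family in the 3 comparisons. Filled red points have an unadjusted p under 0.05, open points do not, black lines are family medians and the dashed line is the median of all genes tested. In DNP versus CON the Pcdha and Pcdhg medians lie at −0.74 and −0.89 and the Pcdhb and single Pcdh medians at −0.17 and 0.13.

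Among the Pcdha genes the C-type gene Pcdhac2, which serotonergic axons need to spread over their targets, had the highest level, with a mean of 6.18 FPKM over the 9 libraries, and it held 20.5% to 36.1% of the family's counts in every library. Its level was 62.9, 43.1 and 59.1 CPM in CON, 32.3, 17.5 and 18.8 CPM in DNP, and 37.2, 25.8 and 33.2 CPM in BAC. No DNP or BAC library reached the lowest CON library. The log2 fold change of DNP against CON was −1.27 (SE 0.27, edgeR unadjusted p = 0.00144, adjusted p = 0.294; DESeq2 adjusted p = 0.00583), and it stayed between −1.60 and −1.12 when any of the libraries was left out. Without CON 2, DNP 1, BAC 1 and BAC 3 it was −1.75.

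The other C-type gene of the cluster, Pcdhac1, was lower in counts, at 6.83, 5.42 and 7.23 CPM in CON and 4.49, 2.32 and 2.50 CPM in DNP. These groups did not overlap, and the log2 fold change was −1.07 (SE 0.35, edgeR unadjusted p = 0.0141, adjusted p = 0.36); leaving out 1 library took the unadjusted p to at most 0.0513, with DNP 3 left out. The 12 Pcdha genes of random choice summed to 95.0 ± 16.98 CPM in CON and 64.8 ± 0.784 CPM in DNP, so the family's difference did not lie in the C-type genes alone. Pcdha12 had 15.8, 8.55 and 13.8 CPM in CON and between 6.74 and 6.96 CPM in the DNP libraries. Pcdha11 (ENSMUSG00000007440) had 5.63 to 7.69 CPM in CON and 3.02 to 4.03 CPM in DNP. Its log2 fold change was −0.98 (SE 0.26, edgeR adjusted p = 0.312, DESeq2 adjusted p = 0.0385). Pcdha3 and Pcdha7 had log2 fold changes of −1.04 (SE 0.39) and −0.87 (SE 0.25), and without CON 1 both Pcdha3 and Pcdha12 lost the unadjusted call (edgeR unadjusted p = 0.096 and 0.0589). Pcdha2, at 14.6 ± 2.27 CPM in CON and 13.1 ± 2.73 in DNP, and Pcdha1, at 4.01 ± 0.904 and 4.19 ± 1.40, overlapped between the groups. Pcdha1 also had the lowest mean of the family, 0.393 FPKM.

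**Figure D3:**
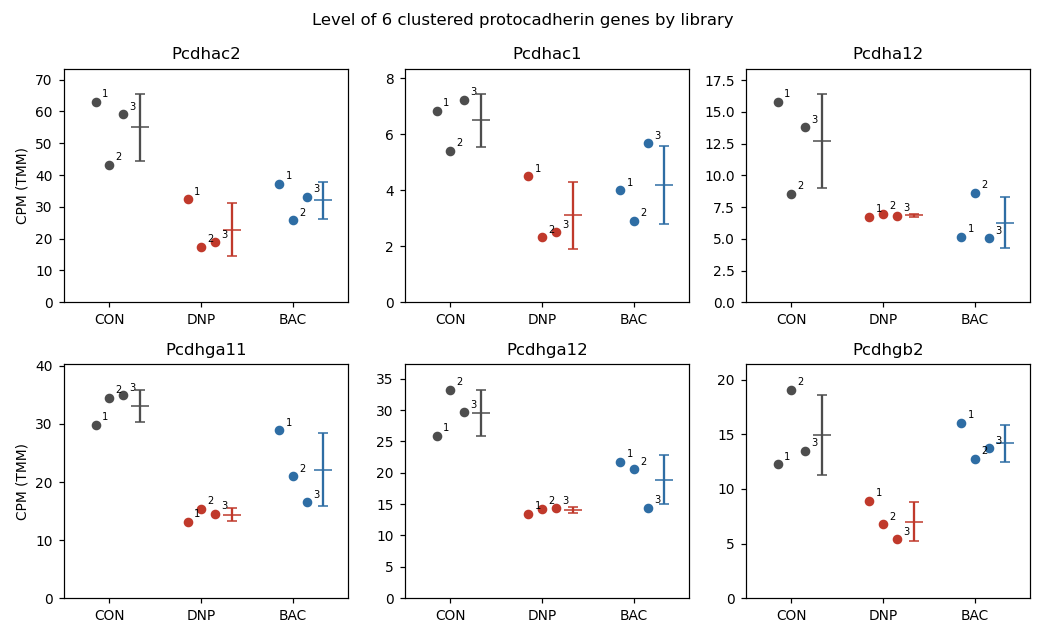
CPM (y axis, from 0) of 3 Pcdha and 3 Pcdhg genes in CON, DNP and BAC. Points are libraries with their replicate number and bars are mean ± SD (n = 3). For all 6 genes the 3 DNP points lie below the 3 CON points. The BAC mean lies near DNP for Pcdha12, although BAC 2 (8.63 CPM) lies just above CON 2 (8.55 CPM), and near CON for Pcdhgb2.

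In the Pcdhg cluster the lowest unadjusted p-values of all protocadherins belonged to the neighbours Pcdhga11 and Pcdhga12. Pcdhga11 had 29.8, 34.5 and 35 CPM in CON and 13.2, 15.4 and 14.6 CPM in DNP. Pcdhga12 had 25.9, 33.3 and 29.6 CPM in CON and 13.5, 14.3 and 14.3 CPM in DNP. Neither gene overlapped between the groups. Their log2 fold changes were −1.20 (SE 0.21, edgeR unadjusted p = 0.000357, DESeq2 adjusted p = 0.000256) and −1.08 (SE 0.19, edgeR unadjusted p = 0.000337, DESeq2 adjusted p = 0.000208), each with an edgeR adjusted p of 0.294. With any library left out they stayed between −1.27 and −1.14 and between −1.17 and −0.99, and without the 4 libraries they were −1.11 and −0.96.

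Pcdhgb2 had 12.3, 19.1 and 13.5 CPM in CON and 8.91, 6.76 and 5.39 CPM in DNP (log2 fold change −1.09, SE 0.25). Pcdhga3 had 18.7 to 20.8 CPM in CON and 7.82 to 11.5 CPM in DNP (−1.02, SE 0.27). Pcdhgb6 had 24.2 to 47.3 CPM in CON, the highest value in CON 2, and 13.3 to 16.9 CPM in DNP (−1.13, SE 0.30). None of these overlapped between the groups. The remaining 5 at an unadjusted p under 0.05, Pcdhga5, Pcdhga6, Pcdhga7, Pcdhgb5 and Pcdhgb7, had log2 fold changes of −0.64, −0.63, −0.77, −0.90 and −0.97, and their groups did not overlap either. With 1 library left out, Pcdhga5, Pcdhga6 and Pcdhgb7 lost the unadjusted call, at edgeR unadjusted p-values up to 0.0561, 0.0583 and 0.0713. Over all families, 12 of the 18 protocadherins called in this comparison kept the call whichever library was left out.

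The C-type Pcdhg genes varied more between libraries. Pcdhgc3, which restrains Wnt signalling through Axin1 in cortical neurons, had 75.7, 169 and 100 CPM in CON, 60.3, 48.5 and 25 CPM in DNP and 106, 81.1 and 8.50 CPM in BAC. Its DNP libraries were below CON, yet the log2 fold change of −1.36 had an SE of 0.76 (edgeR unadjusted p = 0.107), and the BAC libraries ran from far below CON to within it. Pcdhgc4, which interneurons need to survive, had 22.0 ± 5.47 CPM in CON and 13.0 ± 6.47 in DNP, with overlap. Pcdhgc5, whose protein binds GABA-A receptors, had 114, 24.6 and 107 CPM in CON, 14.6, 56.3 and 52.3 CPM in DNP and 17.3, 51.0 and 13.9 CPM in BAC. Its 4 lowest libraries were BAC 3, DNP 1, BAC 1 and CON 2, the same 4 that were low in forebrain excitatory neuron genes. The groups overlapped, with a log2 fold change of −0.99 (SE 0.73, edgeR unadjusted p = 0.209), and the part of the regional markers in these values was not tested.

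Pcdhg counts were not spread evenly over the rows. In each library 1 row took 28.7% to 59.5% of all Pcdhg counts, and it was not always the same row. Pcdhga9 led with 5637 counts in CON 1, 4092 in CON 2, 3870 in BAC 1 and 5729 in BAC 2, but had 64 counts in BAC 3 and 171 in CON 3. CON 3, DNP 2 and BAC 3 were led by Pcdhgb1, with 4968, 4101 and 2699 counts, a gene that had 125 counts in DNP 1. The lead was with Pcdhga2 in DNP 1 (2801 counts) and with Pcdhgb4 in DNP 3 (5737 counts). The leading row therefore differed between libraries of the same group in all 3 groups.

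The leading rows all belonged to 5 genes, Pcdhga2, Pcdhgb1, Pcdhgb4, Pcdhga9 and Pcdhgb8, whose annotated last base is chr18:37841870, whereas the other 17 Pcdhg genes end at chr18:37841873. This division was chosen after the values were seen. Across the 9 libraries the single rows of the 5 had a median CV of 147%, but their sum had a CV of 24.1%. The sum of the 5 was 453 ± 43.1 CPM in CON, 412 ± 148 in DNP and 360 ± 91.5 in BAC (n = 3 each), with overlap between all groups. The other 17 genes summed to 431, 514 and 463 CPM in CON, 226, 257 and 193 CPM in DNP, and 377, 321 and 211 CPM in BAC. Here DNP and BAC were both below CON without overlap, and the log2 ratio of the means was −1.06 for DNP against CON, beside −0.14 for the 5 and −0.53 for all 22. Whether the shared last exon took part in the counts of the 5 rows was not tested.

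**Figure D4:**
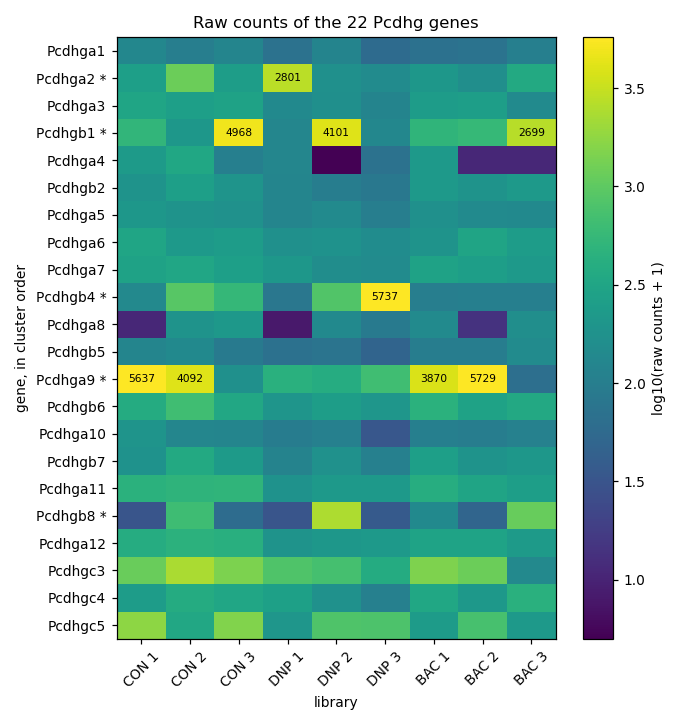
Raw counts of the 22 Pcdhg genes (rows, in cluster order) in the 9 libraries (columns), coloured on a log10(count + 1) scale, with the leading row's count printed in each library. An asterisk marks the 5 genes with the shorter last exon; the printed counts, 2699 to 5737, all fall on 4 of these 5 rows.

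Fold changes of the 5 genes were as unsteady as their counts. Pcdhga9 had 374, 292 and 12.0 CPM in CON and 31.4, 26.8 and 43.5 CPM in DNP, a log2 fold change of −2.74 with an SE of 1.42. Pcdhga2 had a log2 fold change of 0.92 (SE 1.14) in DNP against CON, which became −1.88 without DNP 1. Pcdhgb1 ranged from −3.93 to 2.00 as libraries were left out. Low rows stood out as well. Pcdhga4 had 4 counts in DNP 2 and 10 in BAC 2 and BAC 3 but 71 to 333 elsewhere, and CON 1, DNP 1 and BAC 2 held 10, 7 and 13 counts of Pcdhga8 against 90 to 212 elsewhere. Exonic bases shared with other Pcdhg genes were 3157 in Pcdhga4, 3154 in Pcdhgb1, 2227 in Pcdhga8 and 2224 in Pcdhgb4. All are above the 2116 common to the family, and their part in the low counts was not tested. The Pcdha rows gave no such switching, since Pcdhac2 led in 9 of 9 libraries.

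Of the Pcdhb genes, 17 of 21 had a log2 fold change below 0 in DNP against CON, from −0.89 (SE 0.61) for Pcdhb2 to 0.85 for Pcdhb6. Their mean levels lay between 0.653 FPKM for Pcdhb21 and 5.63 FPKM for Pcdhb9. Pcdhb9 had 17.4 ± 1.54 CPM in CON, 16.8 ± 0.942 in DNP and 17.5 ± 3.12 in BAC, and Pcdhb20 had 16.9 ± 0.680, 16.2 ± 3.06 and 15.7 ± 2.86 CPM. Pcdhb22 was the only member of the family at an unadjusted p under 0.05 and lower in DNP, with 18, 17.5 and 20.2 CPM in CON and 12.7, 14.6 and 12.3 CPM in DNP (log2 fold change −0.49, SE 0.15, edgeR unadjusted p = 0.0111). Pcdhb6 went the other way, at 3.58, 3.07 and 2.46 CPM in CON and 5.50, 6.62 and 4.33 CPM in DNP, without overlap (log2 fold change 0.85, SE 0.25, edgeR unadjusted p = 0.00914, adjusted p = 0.339). It was also the only protocadherin above CON in every BAC library, at 4.72, 6.28 and 5.29 CPM. A pair of Pcdhb rows held a count of 0 in a library although the gene was counted in the rest, where 0 still allows up to 3 counts. Pcdhb19 had 0 counts in CON 1 and 116 to 231 elsewhere, and Pcdhb21, whose end overlaps Pcdhb22, had 0 in BAC 2 and 13 to 87 elsewhere.

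Per length of the deposited model, Pcdh1, a delta1 protocadherin, was the highest single Pcdh gene at a mean of 15 FPKM, followed by Pcdh10 at 6.09 and Pcdh17, which brings the WAVE actin regulator to contacts between axons, at 5.58. Next came Pcdh7 at 3.21, Pcdh8, an activity-induced regulator of N-cadherin at synapses, at 3.02, Pcdh9 at 2.51 and Pcdh20 at 2.28 FPKM. Pcdh19, the gene of an X-linked epilepsy in people, had 1.21 FPKM, and Pcdh18, Pcdh15, a part of the tip link of hair cells, and Pcdh11x had 0.546, 0.397 and 0.382 FPKM. Neighbours in this order overlapped over the libraries, Pcdh1 included, which ran from 7.02 to 27.3 FPKM where Pcdh10 ran from 1.84 to 10.4. Of the 34 Pcdh rows with several annotated transcripts, the length behind FPKM matched the summed transcripts in 14 and neither the sum nor the merged exons in 20, so FPKM levels of such genes are uncertain. Divided by merged exon length instead, Pcdh1 had 21.8 RPKM, Pcdh10 10.1, Pcdh9 8.44 and Pcdh8 8.38, which puts Pcdh9 above Pcdh17 at 5.71.

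Promoters of most, but not all, clustered genes are known to carry a conserved element with the core CGCT, and the insulator protein CTCF takes part in choosing among them. The promoters of the clusters themselves were not analysed here. The core was sought in the RefSeq promoter windows (GRCm38.p6, 250 bases before to 50 after the start) of the single Pcdh genes on other chromosomes, 10 in number, of which 9 had an entry. CGCT, or AGCG for the same core on the other strand (the pair can overlap as AGCGCT), was found in all 10 windows of these 9 genes, but also in 61.8% of 32851 promoters. The pair with the most and the fewest cores is shown, Pcdh10 with 8 cores and 24 CpG (chr3:45378148-45378447, forward strand) and Pcdh20 with 1 core and 4 CpG (chr14:88471347-88471646, reverse strand), with the cores in capitals. The median promoter held 7 CpG.
Pcdh10: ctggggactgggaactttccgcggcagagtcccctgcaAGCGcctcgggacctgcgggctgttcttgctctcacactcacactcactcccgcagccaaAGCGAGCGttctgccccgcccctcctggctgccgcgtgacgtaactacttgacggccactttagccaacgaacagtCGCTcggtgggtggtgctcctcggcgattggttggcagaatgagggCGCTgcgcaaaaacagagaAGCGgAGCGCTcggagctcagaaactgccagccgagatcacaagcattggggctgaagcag
Pcdh20: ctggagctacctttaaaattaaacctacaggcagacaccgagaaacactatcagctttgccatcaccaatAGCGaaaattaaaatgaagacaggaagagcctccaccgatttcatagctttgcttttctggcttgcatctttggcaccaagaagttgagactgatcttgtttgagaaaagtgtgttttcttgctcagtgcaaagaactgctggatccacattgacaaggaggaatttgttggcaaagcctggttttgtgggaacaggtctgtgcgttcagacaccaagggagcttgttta
Pcdh10, a delta2 protocadherin that guides striatal and thalamic axons, had a mean of 6.09 FPKM over the 9 libraries, and Pcdh20 had 2.28 FPKM. Whether the number of cores or CpG goes with the level of these 9 genes was not tested.

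No single Pcdh gene reached an unadjusted p under 0.05 in any comparison over all 9 libraries. Without CON 2, DNP 1, BAC 1 and BAC 3, 10 of the 11 had a log2 fold change below 0 in DNP against CON, with a median of −0.33. Pcdh7, Pcdh15, Pcdh19 and Pcdh20 had −0.69, −0.57, −0.54 and −0.48. In that fit BAC is BAC 2 alone, and the median of the 11 was 0.23 in BAC against DNP and 0.12 in BAC against CON. Pcdh15 (0.91) and Pcdh8 (0.56) were above 0 in BAC against DNP. In BAC against CON, Pcdh8 was above 0 (0.54) and Pcdh1 below it (−0.61). Pcdh1 had 372, 125 and 340 CPM in CON, 94.9, 222 and 190 CPM in DNP and 85.6, 231 and 89.6 CPM in BAC. Its 4 lowest libraries were again BAC 1, BAC 3, DNP 1 and CON 2, and the same held for Pcdh8, at 12.0 CPM in CON 2, 14.7 in BAC 1, 31.6 in BAC 3 and 32.5 in DNP 1 against 42.5 to 67.7 in the other 5. In all, 6 of the 68 genes had these 4 libraries lowest, as did 11.2% of all genes tested. The 6 were Pcdh1, Pcdh8, Pcdhgc5, Pcdhb5, Pcdhb7 and Pcdhb17. Without the 4 libraries, Pcdh1 had a log2 fold change of −0.79 in DNP against CON (edgeR unadjusted p = 0.00123), close to its value of −0.72 over all 9 (SE 0.54). Pcdh10 was lowest in CON 2, at 48.1 CPM, and BAC 1, at 70.4 CPM, the pair richest in cerebellar genes, against 144 to 281 CPM elsewhere. Pcdh7 ran from 18.5 CPM in DNP 2 to 129 CPM in BAC 3 with wide overlap of the groups, and Pcdh9 was highest in DNP 1, at 104 CPM. Pcdh20 came closest to a difference, at 24 ± 6.12 CPM in CON and 17.4 ± 4.92 in DNP (log2 fold change −0.46, SE 0.26, edgeR unadjusted p = 0.106).

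**Figure D5:**
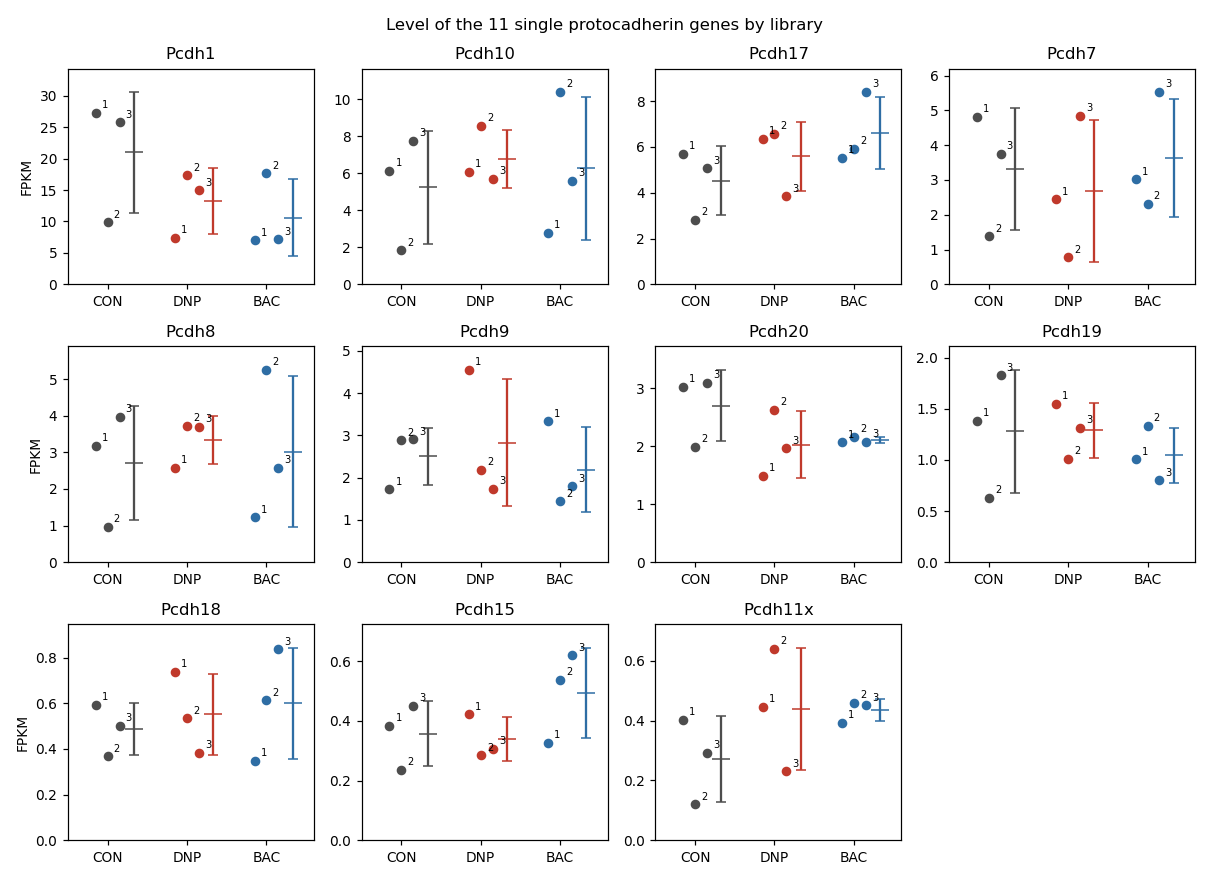
FPKM (y axis, from 0, scaled per panel) of the 11 single Pcdh genes in CON, DNP and BAC, ordered by mean level. Points are libraries with their replicate number and bars are mean ± SD (n = 3). The groups overlap for every gene, and CON 2 is the lowest CON library for 10 of the 11.

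Baclofen-treated mice were compared with DNP to ask whether treatment moved these genes. BAC against DNP gave no protocadherin at an adjusted p under 0.05 in edgeR (0% of all genes called; smallest adjusted p 0.998) and none in DESeq2, which called 0.0378% of all genes. At an unadjusted p under 0.05, 8 protocadherins had higher values in BAC, against 1.37% of all genes, and 1 had lower values, against 1% of all genes. The 8 were Pcdha7 and 7 Pcdhg genes, Pcdhgb2, Pcdhgb5, Pcdhgb6, Pcdhga6, Pcdhga7, Pcdhga11 and Pcdhga12, each of which also had an unadjusted p under 0.05 in DNP against CON. In 10 protocadherins every BAC library was above every DNP library (3.38% of all genes) and in 1, Pcdhb3, every one was below (3.41%). With 1 library left out, Pcdha7 and Pcdhgb2 kept the call throughout, and the other 7 of the 9 lost it in at least 1 fit, at unadjusted edgeR p-values up to 0.0551 to 0.170; without DNP 3, 4 protocadherins were called. The DNP libraries enter both comparisons, so the pair is not independent. Median log2 fold changes were 0.28 for Pcdha, 0.14 for Pcdhb, 0.47 for Pcdhg and −0.04 for the single Pcdh genes, beside −0.01 for all genes.

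Pcdhgb2 had the smallest p of these, with 16.1, 12.8 and 13.7 CPM in BAC above the 5.39 to 8.91 CPM of DNP (log2 fold change 1.02, SE 0.25, edgeR unadjusted p = 0.00321, DESeq2 adjusted p = 0.266). Its BAC level, 14.2 ± 1.69 CPM, lay within the CON range, and the log2 fold change of BAC against CON was −0.08 (SE 0.25). Pcdha7 had 4.43, 5.59 and 4.66 CPM in BAC, 2.04 to 3.19 in DNP and 4.49 to 5.90 in CON, with a log2 fold change of 0.85 (SE 0.25) against DNP and −0.03 against CON. Pcdhga11 and Pcdhga12 had BAC means of 22.1 ± 6.28 and 18.9 ± 3.95 CPM, and each BAC library lay above every DNP library and below every CON library. Pcdha12 had 6.28 ± 2.04 CPM in BAC against 6.84 ± 0.114 in DNP. Genes with a higher BAC mean that missed the threshold included Pcdhgc4, Pcdhgb7 and Pcdhga3, at log2 fold changes of 0.77 (SE 0.39), 0.73 (SE 0.33) and 0.60 (SE 0.27), and Pcdhac2, at 32.0 ± 5.8 CPM in BAC, overlapped DNP with a log2 fold change of 0.49 (SE 0.27, edgeR unadjusted p = 0.108). The 1 gene with lower values was Pcdhgb4, among the rows of unsteady counts, at 377 CPM in DNP 3 and 5.79 CPM in DNP 1, within the range of which all BAC libraries lay.

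BAC against CON gave 0 adjusted calls among the protocadherins in edgeR (0% of all genes; smallest adjusted p 0.628) and in DESeq2 (0.546% of all genes called). At an unadjusted p under 0.05, 5 had lower values in BAC, Pcdha11 (ENSMUSG00000007440), Pcdha12, Pcdhac2, Pcdhga11 and Pcdhga12, against 3.3% of all genes, and Pcdhb6 had higher values, against 4.46%. In 11 protocadherins every BAC library was below every CON library (6.23% of all genes), and in Pcdhb6 every one was above (7.21%). The log2 fold changes were −0.78 (SE 0.27) for Pcdhac2, −1.02 (SE 0.29) for Pcdha12 and −0.65 (SE 0.19) for Pcdhga12. With 1 library left out, 3 of the 6 lost the unadjusted call, Pcdha11 (ENSMUSG00000007440), Pcdhac2 and Pcdhga11, at unadjusted edgeR p-values up to 0.0629 to 0.0773. Family medians were −0.43 for Pcdha, −0.12 for Pcdhb, −0.41 for Pcdhg and 0.11 for the single Pcdh genes, beside −0.02 for all genes.

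Without CON 2, DNP 1, BAC 1 and BAC 3, a fit of the remaining 5 libraries put 29 protocadherins at an unadjusted p under 0.05 in DNP against CON, 26 of them lower, where 17.2% of all genes were called. For BAC against DNP it put 14 there, 12 of them higher (5.86% of all genes), and for BAC against CON 13, 11 of them lower (9.16%). BAC then rests on BAC 2 alone, which is assumed to vary like the other groups.

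Other features differed between the groups beside the protocadherins. Oligodendrocyte markers had higher values in DNP than in CON at an unadjusted p under 0.05 for 7 of 7 genes. In this comparison 5.71% of all genes were called higher and 5.46% lower. The sums were 2128 to 2887 CPM in CON and 3678 to 9159 CPM in DNP. Blood markers were called higher in DNP for 5 of 5, with sums of 190 to 205 CPM and 477 to 683 CPM. In BAC against CON, 6 of 7 oligodendrocyte and 5 of 5 blood markers were called higher, against 4.46% of all genes. Markers of meninges and fibroblasts had lower values in DNP for 5 of 7 genes (28.7 to 43.3 CPM against 51.9 to 76.1 CPM). They had higher values in BAC than in DNP for 6 of 7, against 1.37% of all genes. Cerebellar neuron markers had log2 fold changes below 0 in DNP against CON for 12 of 12 genes (median −3.15, 2 at an unadjusted p under 0.05) and above 0 in BAC against DNP for 12 of 12 (median 2.38, 0 at that threshold), and forebrain excitatory neuron markers were below 0 in DNP against CON for 7 of 7 (median −0.45, 1 at that threshold). Of the general neuron markers, 0 of 8 passed it in DNP against CON, with a median of 0.23. Forebrain excitatory neuron markers were below 0 for 7 of 7 in BAC against DNP (median −1.36) and in BAC against CON (median −1.71). Brainstem and spinal cord markers were above 0 for 12 of 12 in each comparison. Their medians were 6.62 in DNP against CON, 2.00 in BAC against DNP and 9.38 in BAC against CON. In the last comparison 10 of 12 had an unadjusted p under 0.05 in edgeR, against 4.46% of all genes. The mitochondrial share of counts was 4.96% ± 0.544 for CON libraries, 6.80% ± 0.186 for DNP and 6.42% ± 0.705 for BAC. Over all genes tested, the median log2 fold change of DNP against CON was 0.15 in the 4626 genes with the shortest models and −0.14 in the 4625 with the longest, which held 10 of the 11 single Pcdh genes (median 0.13), 5 of the 14 Pcdha genes and 4 of the 22 Pcdhg genes. The part of any of these in the protocadherin values was not tested.

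Genes that act with the protocadherins were taken from 3 lists. Of 21 chromatin regulators tied to the clusters (CTCF, cohesin and its loaders, DNA methylation enzymes), 6 had lower values in DNP than in CON at an unadjusted p under 0.05 (5.46% of all genes) and none higher (5.71%), with a median log2 fold change of −0.35. Pds5a, a cohesin partner, had 62.9 ± 5.17, 44.4 ± 2.36 and 60.7 ± 9.24 CPM in CON, DNP and BAC (−0.50 in DNP against CON, SE 0.15). Ctcf itself had 84.6 ± 14.4 CPM in CON and 65.3 ± 5.94 in DNP (−0.37, SE 0.16, edgeR unadjusted p = 0.0469). Wapl, which releases cohesin from DNA, had 65.7 ± 9.12, 49.1 ± 5.43 and 47.7 ± 7.93 CPM in the 3 groups. Wapl and Wiz had lower values in BAC than in CON at an unadjusted p under 0.05 (3.3% of all genes). Each had an edgeR adjusted p of 0.628.

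Of 25 intracellular partners, 3 had lower values in DNP at an unadjusted p under 0.05 (Abi2, Cyfip2 and Adam10; 5.46% of all genes) and 1 higher (Set; 5.71%), with a median of −0.12. Cyfip2 and Abi2, subunits of the WAVE complex, had log2 fold changes of −0.56 (SE 0.19) and −0.98 (SE 0.37), and Adam10, a protease that sheds cadherin ectodomains, had −0.64 (SE 0.25). Of 37 other cadherins and catenins tested, 5 had lower values in DNP at an unadjusted p under 0.05 (5.46% of all genes) and 1 higher (5.71%), with a median of −0.29. The 1 was Cdh19, a cadherin of glia, at 8.12 ± 1.38 CPM in CON, 18.5 ± 1.40 in DNP and 17.8 ± 2.40 in BAC (log2 fold change 1.19, SE 0.19, edgeR unadjusted p = 0.000155, adjusted p = 0.294). Celsr2, a seven-pass cadherin of planar polarity, had 370 ± 87.1 CPM in CON and 220 ± 24.1 in DNP (−0.75, SE 0.20), and Cdh2, the N-cadherin of synapses, 113 ± 16.9 and 84.6 ± 16.4 CPM (−0.42, SE 0.18).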

How the data were processed

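Whole-brain RNA-seq of 9 mice (3 CON, 3 DNP, 3 BAC, grouped by the labels) was analysed from 2 gene tables. Per the labels and the study's methods, the authors made non-strand-specific paired-end libraries of 150-base reads, checked them with FastQC 0.11.9 and fastp, aligned them to GRCm38 with HISAT2 2.1.0 and quantified them with StringTie 1.3.3b; Bowtie2 2.3.4.1 is also named in the submitters' processing notes. The authors deposited raw counts per gene and FPKM values. How reads shared by several genes were counted is not given in the sources used here.

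Counts were tested in R 4.3.3 with edgeR 4.0.16 (filterByExpr, TMM scaling, quasi-likelihood F-test, all 9 libraries in 1 fit, Benjamini-Hochberg adjustment over 18501 genes). DESeq2 1.42.0, limma 3.58.1 on log2(FPKM + 1) and log2(FPKM + 0.1), no filter, a replicate block and leaving out each library were alternatives. CPM are counts scaled by TMM-adjusted library size, at 13107382 to 16008129 counts per library. Sums of marker genes are the exception and use the library total without TMM. SD is over the 3 libraries of a group, and counting error is not given beside it. For genes with few counts an SD can fall below counting error. Pcdha12 in DNP, for example, had 93, 102 and 104 counts but an SD of 0.114 CPM around a mean of 6.84 CPM. The fit was tested on simulated data. Nothing in the labels says more of the replicates than that they are separate samples, so p-values measure the spread between these samples. The protocadherin genes and the lists were chosen with earlier results of these data known. Genes named are every single Pcdh gene, the C-type genes, the 2 highest and the lowest mean FPKM of each of Pcdha, Pcdhb, Pcdhga and Pcdhgb, every member at an unadjusted p under 0.05, and, of each list, at most 3 such genes per comparison and direction; Pcdhb2, Pcdhb3, Pcdhgb8, Pcdhga4, Pcdhga8, Pcdhb19, Pcdhb5, Pcdhb7, Pcdhb17 and the marker genes were named after their values were seen. The genes shown of the lists were not always those with the smallest p. Cdh2, for example, is shown, while Cdh8, with a smaller edgeR unadjusted p in DNP against CON (0.0203 against 0.0451), is not. RefSeq promoters (GRCm38.p6) supplied the sequences. The values of 1 gene of the lists are not reported here.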

Additional observations from a re-analysis of the deposited data

How the results depend on the processing

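Directions of the Pcdha, Pcdhb and Pcdhg medians held under every alternative run, while the single Pcdh median changed sign (−0.33 to 0.27 in DNP against CON). DESeq2 called 346, 7 and 101 genes in DNP against CON, BAC against DNP and BAC against CON, where edgeR called 0; leaving out a library gave 0 to 1 gene in DNP against CON and in BAC against CON. With limma on log2(FPKM + 1) the medians in DNP against CON were −0.27 for Pcdha, −0.084 for Pcdhb and −0.57 for Pcdhg, and in BAC against CON −0.17 for Pcdha; the pseudocount shrinks low genes. The following alternatives without 4 libraries or 5 rows were chosen after seeing the data. Without CON 2, DNP 1, BAC 1 and BAC 3, 29, 14 and 13 protocadherins had an unadjusted p under 0.05 (18, 9 and 6 with all libraries), the Pcdha median was −0.94 in DNP against CON, and the Pcdhb median was 0.018 in BAC against DNP and −0.21 in BAC against CON. There Pcdhga2 turned to −0.70 in DNP against CON, and in BAC against DNP Pcdh8 turned to 0.56 (from −0.14) and Pcdhb21 to −8.34, with BAC 2 at 0 counts. Pcdhga2 also turned, to −1.88, without DNP 1, and ran up to 2.09 with another library left out (0.92 with all). Without the 5 rows of the shorter last exon, the log2 ratio of the Pcdhg sums was −1.06 (DNP against CON) and 0.43 (BAC against DNP, from 0.06). Leaving out a library in turn gave 14 to 23 protocadherins at p under 0.05 in DNP against CON, 4 to 11 in BAC against DNP (4 without DNP 3) and 3 to 10 in BAC against CON (3 without CON 3, 10 without CON 2). Over the same fits the Pcdhb median ran from −0.27 to −0.15 in DNP against CON, 0.059 to 0.25 in BAC against DNP and −0.20 to −0.025 in BAC against CON, and the Pcdhg median from −1.15 to −0.74 in DNP against CON. The cause of these shifts was not tested.

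With the replicate block 19, 7 and 6 protocadherins had an unadjusted p under 0.05; the labels share only numbers, and 3 of 9 same-numbered pairs deviated together (r over 0.1; range −0.58 to 0.56), so the block is not a pairing of animals.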
